A study of Mus musculus with 6 samples.

Results

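The miR-199 and miR-214 microRNAs were examined in small RNA libraries of mouse spinal cord. They are the rows of the deposited miRNA table named miR-199 or miR-214, which gave 5 rows of 1482: mmu-miR-199a-3p, mmu-miR-199a-5p, mmu-miR-199b-5p, mmu-miR-214-3p and mmu-miR-214-5p. The prefix mmu, for mouse, is left out from here on. All 5 had enough reads to be tested, among 614 tested rows. The series compared 3 libraries labelled control with 3 labelled SCI (spinal cord injury). Control-labelled mice had a laminectomy at T10, the exposure of the cord by removal of bone, and no cord injury. SCI-labelled mice had the same laminectomy and were then contused at the same level, to a moderate degree, by a 10 g weight falling 20 mm. Tissue of about 1 cm around T10 was collected on day 2 after surgery in both groups. The labels give no strain, age, sex or genotype for either group.

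MicroRNAs are short RNAs cut from a hairpin precursor, and either side of the hairpin, the 5p or the 3p arm, can be loaded onto an Argonaute protein. Base pairing through the seed, bases 2 to 8, then directs repression of target messenger RNAs. miR-199 and miR-214 are known as miRNAs of mesenchymal cells, such as fibroblasts, and are made in developing skeleton, fibrotic heart and fibrotic kidney. In the cord, fibroblast-lineage cells lie in the meninges and around vessels, and they contribute to the fibrous scar after injury.

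The direction of the labels has to be read with care. miR-21a-5p, widely reported to rise after tissue injury, averaged 100083 ± 27262 CPM (counts per 1000000; SD, n = 3) under the control label against 12003 ± 774 CPM (SD, n = 3) under the SCI label. All 6 listed leukocyte miRNAs were also higher in the control-labelled libraries. In the deposited table the samples labelled SCI sit under column names starting with Normal, and those labelled control under names starting with Control. Groups are therefore named by their labels throughout, and every direction is that of the labels as deposited. Total counts ran from 5568491 to 8889977 per library. Neuron and oligodendrocyte miRNAs were present in every library, with summed levels of at least 12399 and 9118 CPM. Summed levels here and below use the library total, without TMM scaling. Control-labelled library 3 stood apart in its skeletal muscle miRNAs, whose summed level was 43584 CPM, the highest of the 6 libraries and over a lowest value of 7844 in its group. It also differed outside muscle. There miR-124-3p stood at 2008 CPM, against 660 and 725 in control-labelled libraries 1 and 2, and miR-219a-5p at 335 against 69.7 and 78.2. The neuron miRNA miR-128-3p did not follow, at 3733 against 4462 and 4854.

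The mature sequences show which rows can be told apart. RefSeq (GRCm38.p6) held 4 of the 5 mature sequences, and miR-199b-5p was not among them. In the lines that follow, capitals mark the seed.
miR-199a-5p: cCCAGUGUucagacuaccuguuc
miR-199a-3p: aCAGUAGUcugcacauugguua
miR-199b-3p: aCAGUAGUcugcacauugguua
miR-214-5p: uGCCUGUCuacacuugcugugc
miR-214-3p: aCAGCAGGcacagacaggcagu
miR-199b-3p is identical to miR-199a-3p and has no row of its own in the table, so the row named miR-199a-3p can hold reads of 3 hairpins. The miR-199a-5p sequence occurs in both the Mir199a-1 and the Mir199a-2 hairpin. Its best match in the Mir199b hairpin differs by 1 base, C10U, counted from 1 at the 5′ end of miR-199a-5p and outside the seed. How the authors assigned reads that match several hairpins is not given in the sources used here. The 3p arms of miR-199a and miR-214 have 5 of 7 seed bases in common, at the same positions, and so belong to different seed families. Among mouse mature sequences in the RefSeq table, the miR-214-3p seed was shared by miR-761, which was not a row of the deposited table.

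The hairpins lie opposite introns of 3 dynamin genes, which code for membrane-cutting GTPases. On GRCm38, the assembly that mm10 denotes, Mir199a-2 is at chr1:162217814-162217923 (plus strand) and Mir214 at chr1:162223368-162223477 (plus strand), 5444 bases apart. GENCODE M21 places both inside an exon of Dnm3os, a long noncoding RNA gene at chr1:162217623-162225550 that runs antisense to an intron of Dnm3. Mir199b is at chr2:32318460-32318569 (plus strand), antisense to an intron of Dnm1. Mir199a-1 is at chr9:21496495-21496564 (minus strand), antisense to an intron of Dnm2. miR-214 thus has 1 annotated source, and miR-199a has 2. The pair of Dnm3os hairpins is shown with the arms in capitals, because the comparison between arms turns on them.
Mir199a-2: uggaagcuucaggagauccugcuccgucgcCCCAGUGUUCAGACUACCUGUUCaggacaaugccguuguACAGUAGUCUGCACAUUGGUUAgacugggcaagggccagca
Mir214: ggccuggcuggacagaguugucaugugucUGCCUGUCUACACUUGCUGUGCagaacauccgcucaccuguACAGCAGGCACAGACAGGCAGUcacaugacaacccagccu

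All 5 miRNAs passed the test with a lower level under the SCI label, and for each of them every control-labelled library was above every SCI-labelled one. Of all 614 tested rows, 39.4% passed, with 23.1% lower and 16.3% higher, and 28.0% were lower without overlap. The median log2 fold change of the members was -1.61, against -0.07 over all tested rows. Differences were tested with edgeR's quasi-likelihood test on the deposited counts, with Benjamini-Hochberg adjustment over the tested rows and a threshold of 0.05. Levels are in CPM scaled by TMM, a correction for differences in composition between libraries. A read spans a whole mature miRNA, so these levels hold no term for length. In bulk tissue, fewer cells of a type and less RNA per cell cannot be told apart. Together the 5 rows took 0.301% ± 0.107 of all counts under the control label against 0.0858% ± 0.0215 under the SCI label (SD, n = 3 each).

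miR-199a-3p, a miRNA reported to target Mtor and Met, was the most abundant of the 5 in every library. It stood at 1859.7, 1265.6 and 2213 CPM in libraries 1, 2 and 3 labelled control, against 385, 752 and 607 CPM in libraries 1, 2 and 3 labelled SCI. The lowest control-labelled library, library 2, was above the highest SCI-labelled one, also library 2. The level was 3.06-fold lower in the SCI-labelled group (95% interval 1.90 to 4.93; edgeR adjusted p = 0.00379).

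miR-199a-5p, which is reported to target the caveolin gene Cav1 in fibroblasts, stood at 972, 465 and 942 CPM (control label) against 159, 287 and 261 CPM (SCI label). Control-labelled library 2 was well below the others of its group and still above every SCI-labelled library. The difference was 3.37-fold (95% interval 1.96 to 5.77; edgeR adjusted p = 0.00455). miR-199b-5p, known for its role in heart muscle growth through Dyrk1a, had 149, 77.7 and 192 CPM against 37.9, 51.0 and 48.0 CPM. It was 3.06-fold lower in the SCI-labelled group (95% interval 1.81 to 5.17; edgeR adjusted p = 0.00589). The folds of the 3 miR-199 rows lay within each other's intervals.

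miR-214-3p, the arm reported to target Ezh2, showed the largest difference of the 5. It stood at 181, 99.9 and 144 CPM (control label) against 10.2, 16.4 and 12.7 CPM (SCI label). Its raw counts were 1133, 552 and 1220 against 82, 106 and 112. The level was 10.8-fold lower in the SCI-labelled group (95% interval 6.68 to 17.6; edgeR adjusted p = 0.000128). This was the 18th largest fall among the 614 tested rows, while the other 4 members ranked from 58 to 78.

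miR-214-5p, usually the arm with fewer reads, stood at 58.9, 23.9 and 24.3 CPM (control label) against 7.56, 17.4 and 16.1 CPM (SCI label). The gap between the groups was small, since control-labelled libraries 2 and 3 were near SCI-labelled libraries 2 and 3. It was 2.61-fold lower in the SCI-labelled group (95% interval 1.30 to 5.24; edgeR adjusted p = 0.0361). This call was sensitive to leaving out libraries. It was lost without control-labelled library 1 (log2 -0.75, adjusted p = 0.138) and without SCI-labelled library 1 (log2 -1.06, 0.114), 2 (log2 -1.55, 0.0728) or 3 (log2 -1.49, 0.0902), all by edgeR. Without SCI-labelled library 2 or 3 the fall was no smaller than in the main fit (log2 -1.39). In those fits 97 and 87 of all tested rows were lower, against 142 with all libraries. Among the other 4 members no call was lost when any 1 library was left out, with edgeR adjusted p up to 0.0358.

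**Figure D1:**
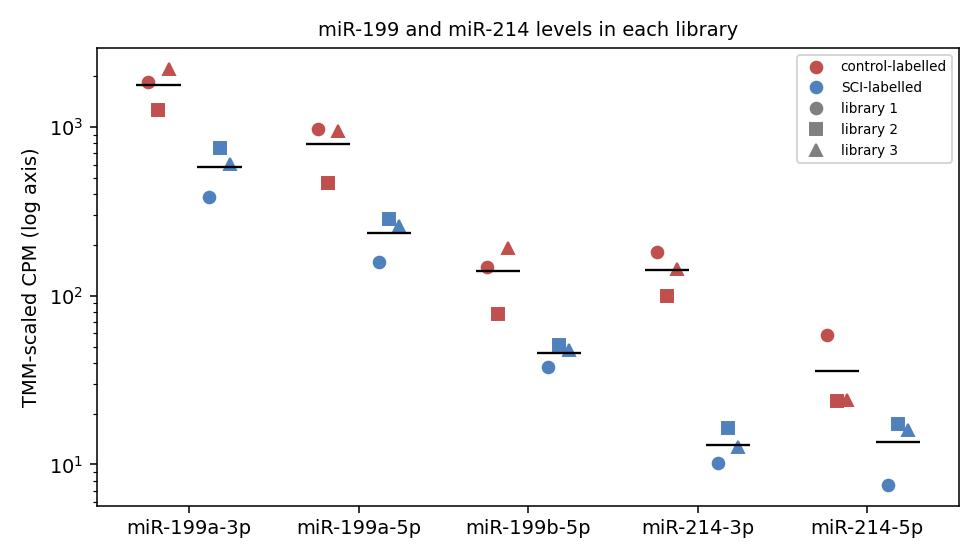
TMM-scaled CPM of each miRNA (log axis) in the 6 libraries, with the symbol giving the library number, the color the group and the bar the group mean. In all 5 miRNAs the control-labelled points lie above the SCI-labelled points, by the widest gap in miR-214-3p and the narrowest in miR-214-5p.

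The spread within a group was shared to a large degree. Control-labelled library 2 was the lowest of its group in all 5 miRNAs, and SCI-labelled library 1 was the lowest of its group in all 5. The highest library of the SCI-labelled group was library 2 in all 5. In the control-labelled group the highest was library 3 for miR-199a-3p and miR-199b-5p and library 1 for the others. Within the control-labelled group the highest library was 1.75 to 2.48 times the lowest, depending on the miRNA. Within the SCI-labelled group this ratio was 1.35 to 2.30.

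The order of levels changed at its lower end. miR-199a-3p was followed by miR-199a-5p in every library. In the control-labelled group miR-214-3p, at 142 ± 40.8 CPM, and miR-199b-5p, at 140 ± 57.9 CPM, differed by less than their SD (n = 3 each), with miR-214-5p below them at 35.7 ± 20.1 CPM. In the SCI-labelled group miR-199b-5p came next at 45.6 ± 6.86 CPM, and miR-214-5p, at 13.7 ± 5.33 CPM, and miR-214-3p, at 13.1 ± 3.15 CPM, differed by less than their SD (n = 3 each). By rank of abundance in the table, miR-214-3p stood between 185 and 224 in libraries labelled control and between 354 and 391 in those labelled SCI.

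**Figure D2:**
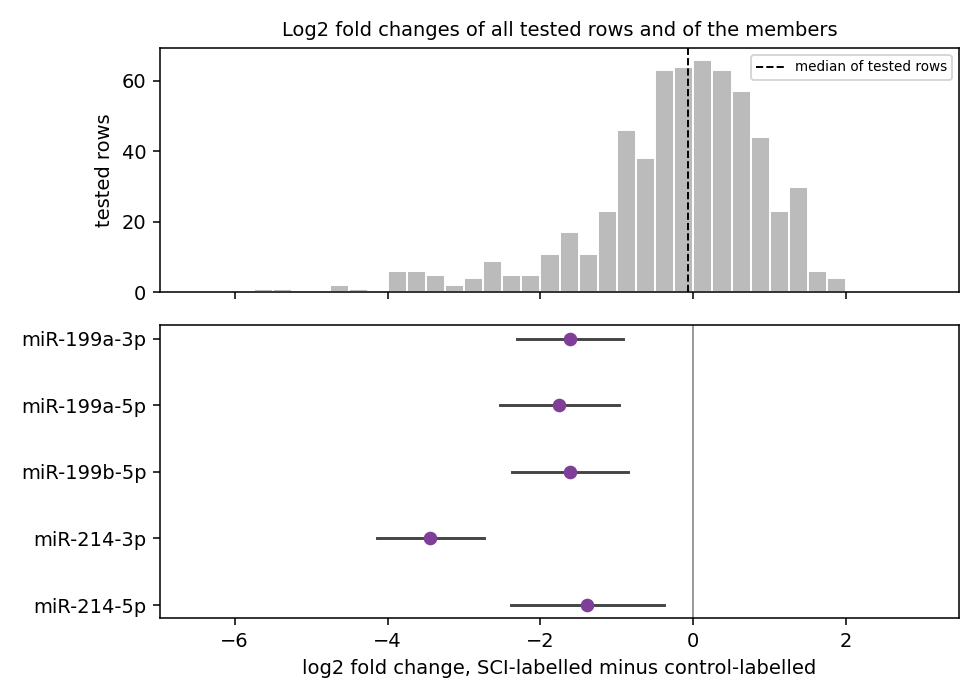
Upper panel, the number of tested rows by log2 fold change (SCI-labelled minus control-labelled), with the median of -0.07 as a dashed line; lower panel, the members with 95% intervals. The interval of miR-214-3p, from -4.14 to -2.74, lies below those of the other 4 miRNAs.

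Ratios between members within a library do not depend on how libraries are scaled, and they separated miR-214-3p from the rest. The number of miR-214-3p reads per miR-199a-5p read was 0.187, 0.215 and 0.153 (control label) against 0.0638, 0.0573 and 0.0486 (SCI label). The groups did not overlap, and the ratio was 3.24-fold lower in the SCI-labelled group. Relative to miR-199a-3p, miR-214-3p was 3.45-fold lower, again without overlap. The exact two-sided permutation p was 0.1 for each (adjusted p = 0.233 over 7 ratios), and 0.1 is the smallest that 3 libraries against 3 can give, so no ratio could pass 0.05.

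The ratio of the miR-214 arms to each other, given with the arms below, did not overlap either, and the remaining 4 ratios did overlap. miR-199a-3p reads per miR-199a-5p read were 1.91, 2.72 and 2.35 (control label) against 2.42, 2.62 and 2.33 (SCI label), a log2 difference of 0.09. miR-199b-5p reads per miR-199a-5p read were 0.153, 0.167 and 0.204 against 0.238, 0.178 and 0.184, a log2 difference of 0.19. miR-214-5p per miR-199a-5p, a ratio chosen after the data were seen, was 0.0606, 0.0514 and 0.0258 against 0.0475, 0.0606 and 0.0617. Its log2 difference was 0.38, and between 0.01 and 0.63 when any 1 library was left out. Exact permutation p-values of these 3 ratios were 0.8, 0.4 and 0.5. The ratio of miR-214-5p to miR-199a-3p, also chosen after the data were seen, had a log2 difference of 0.29 (exact permutation p = 0.6). With 3 libraries a group, differences smaller than this spread could not be seen.

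**Figure D3:**
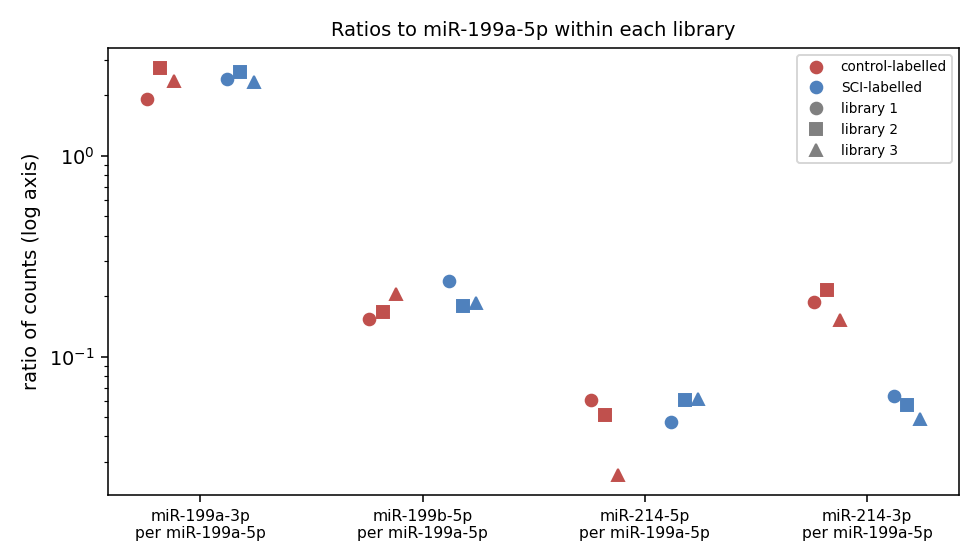
Counts of 4 members divided by the miR-199a-5p count of the same library (log axis), with the symbol giving the library number and the color the group. Only the miR-214-3p points separate by group, at 0.153 to 0.215 (control label) and 0.0486 to 0.0638 (SCI label).

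The arms of miR-214, printed in capitals in its hairpin above, therefore changed their balance. The 3p arm made up 75.5%, 80.7% and 85.6% of the reads of both arms in libraries 1, 2 and 3 labelled control, against 57.3%, 48.6% and 44.1% in libraries 1, 2 and 3 labelled SCI. In SCI-labelled libraries 2 and 3 the 5p arm had more reads than the 3p arm, with 112 against 106 and 142 against 112. In SCI-labelled library 1 and in every control-labelled library the 3p arm led. Of 179 hairpin names with both arms counted, 16 had a different leading arm by mean CPM between the groups, miR-214 among them. Of these 16, 2 had the same leading arm in every library of each group, which miR-214 did not. The ratio of 5p to 3p reads was 0.325, 0.239 and 0.169 (control label) against 0.744, 1.06 and 1.27 (SCI label), a log2 difference of 2.08 (exact permutation p = 0.1, the smallest possible). The log2 fold change of the 3p arm minus that of the 5p arm was -2.05 (edgeR diffSpliceDGE adjusted p = 0.0104), the arms differing in all 3 against all 3 libraries. This test was run over 179 hairpin names with both arms counted, of which 30.2% passed, 29 with the 3p arm lower relative to the 5p arm and 25 with it higher. Of those that passed, 7 had a larger difference than miR-214. Without SCI-labelled library 3 the call was lost (log2 -1.90, adjusted p = 0.0661), and 29 hairpins passed in place of 54. There were 29 without SCI-labelled library 1 and 33 without SCI-labelled library 2, and miR-214 passed in both.

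For miR-199a, whose reads can come from either hairpin of that name and for the 3p arm also from Mir199b, no such difference was found. Its 3p arm made up 65.7%, 73.1% and 70.1% of the reads of both arms (control label) against 70.8%, 72.4% and 70.0% (SCI label). The groups overlapped, and the log2 difference between the arms was 0.14 (edgeR diffSpliceDGE adjusted p = 0.907). It ran from -0.00386 to 0.213 when any 1 library was left out. Whether the difference between arms itself differed between miR-214 and miR-199a was not tested.

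**Figure D4:**
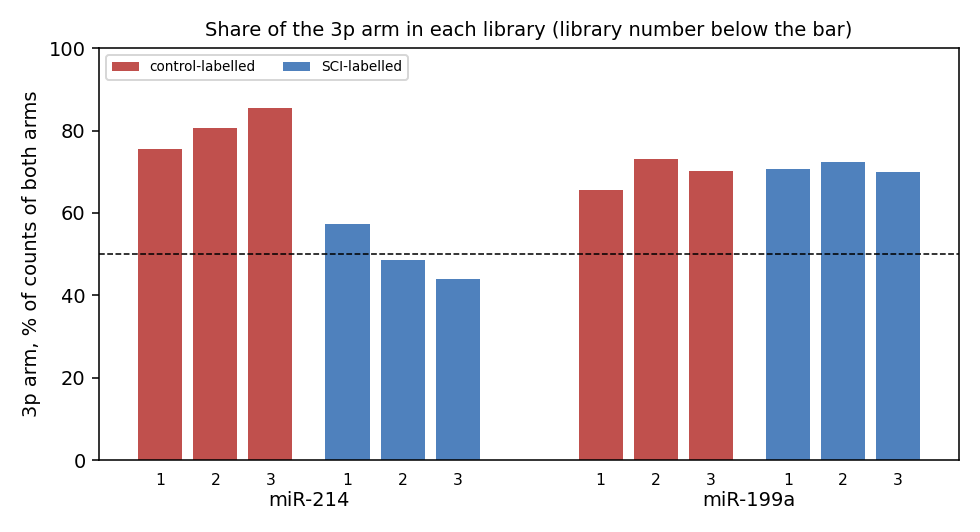
Percent of the reads of both arms that came from the 3p arm, per library, for miR-214 and miR-199a, with a dashed line at equal shares. For miR-214 the bars are at 75.5% to 85.6% (control label) and 44.1% to 57.3% (SCI label), and for miR-199a all 6 are between 65.7% and 73.1%.

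**Figure D5:**
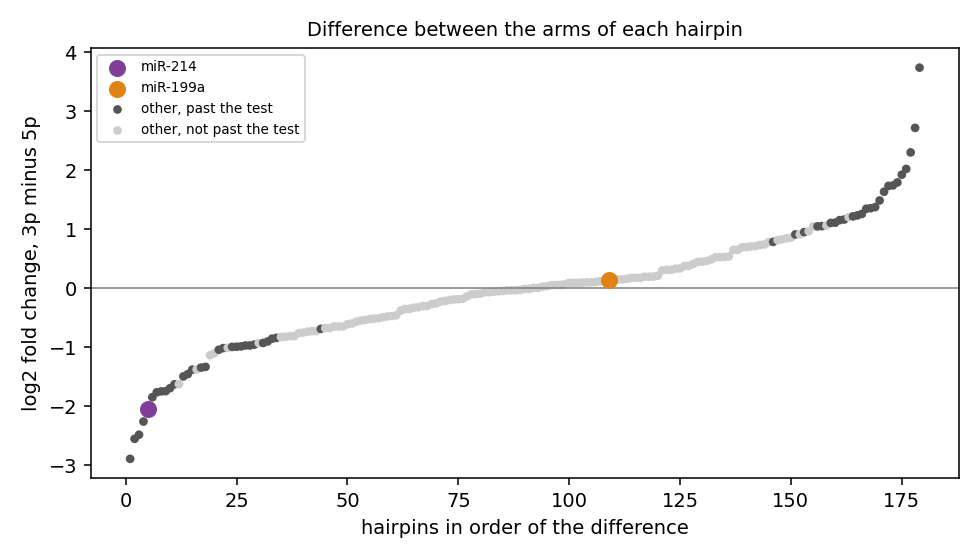
Log2 fold change of the 3p arm minus that of the 5p arm for each of the 179 hairpin names, in order of size. miR-214, at -2.05, is the fifth from the low end, and miR-199a, at 0.14, is in the middle.

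Dnm3os holds the hairpins Mir214 and Mir199a-2. Its promoter is shown as RefSeq (GRCm38.p6) gives it, 250 bases before to 50 after the start, at chr1:162217373-162217672 (plus strand). The miR-199a rows can also hold reads of Mir199a-1, so no row measured Mir199a-2 alone. Twist1, a transcription factor of mesenchyme, is known to act on Dnm3os through an E-box, and serum response factor, a regulator of contractile and cytoskeletal genes, binds CArG boxes. Capitals mark matches to the E-box CANNTG and to the CArG box.
Dnm3os promoter: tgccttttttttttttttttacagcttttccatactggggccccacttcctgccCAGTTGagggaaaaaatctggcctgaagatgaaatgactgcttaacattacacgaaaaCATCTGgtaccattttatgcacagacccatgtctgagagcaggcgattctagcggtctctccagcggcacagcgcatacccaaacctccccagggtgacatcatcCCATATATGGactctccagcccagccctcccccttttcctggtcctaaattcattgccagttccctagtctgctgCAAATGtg
The window holds 3 matches to CANNTG, a motif that reads the same way on both strands in this form and occurs in 72.3% of 32851 promoters of this length. One of them, CATCTG, begins 138 bases before the start, and CATCTG or its reverse complement CAGATG occurs in 17.2% of the promoters. The CArG box begins 33 bases before the start, and a match to it occurs in 1.63% of the promoters. The CArG box also reads the same on both strands, and its match overlaps no E-box match. These matches describe the letters only. Neither binding nor Dnm3os RNA was measured, and a part of the promoter in the lower levels was not tested.

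Other miRNAs tied to mesenchyme and fibrosis were mixed. Of 5 further mesenchymal miRNAs, 3 were lower in the SCI-labelled libraries, 0 higher and 2 did not pass, with a median log2 change of -0.60. miR-140-3p, made in cartilage, was lower by a log2 change of -2.06 (edgeR adjusted p = 0.000576), and miR-152-3p by -1.77 (0.000649). The call of miR-455-3p (log2 -0.60, edgeR adjusted p = 0.0468) was lost when any 1 library was left out, which leaves 2 lower. miR-140-5p (log2 -0.21) and miR-455-5p (0.41) did not pass, and without control-labelled library 1 miR-455-5p was higher (0.95, edgeR adjusted p = 0.0209). Among 5 other miRNAs described as profibrotic, miR-21a-5p, miR-21a-3p and miR-155-5p were lower, miR-34a-5p (log2 1.39) was higher and miR-192-5p (-0.27) did not pass. miR-155-5p is also among the listed leukocyte miRNAs. miR-21a-3p was near the floor, at 4.96 ± 1.96 CPM (control label) against 0.08 ± 0.13 (SCI label; SD, n = 3 each). It passed the count filter only through the control-labelled group, so it could only be called lower. The call of miR-34a-5p was lost without SCI-labelled library 1 (edgeR adjusted p = 0.0529) or 3 (0.0611). Of 15 tested miRNAs described as antifibrotic, 5 were lower, 0 higher and 10 did not pass. miR-133a-3p, which did not pass, is also on the skeletal muscle list. The lower ones were miR-30a-5p (log2 -0.99) and 4 miRNAs of the epithelial miR-200 family, miR-200a-3p (-0.93), miR-200b-3p (-2.27), miR-200c-3p (-3.65) and miR-141-3p (-2.27). miR-141-3p was near the floor, at 1.93 ± 0.57 CPM (control label) against 0.39 ± 0.12 (SCI label; SD, n = 3 each). For the same reason as miR-21a-3p, it could only be called lower. Leaving out any SCI-labelled library, or the first control-labelled one, ended the call of miR-200a-3p (edgeR adjusted p up to 0.111). The miR-29 family, which represses collagen genes, gave log2 changes of -0.10 for miR-29a-3p, 0.34 for miR-29b-3p and -0.14 for miR-29c-3p. Without control-labelled library 3 the antifibrotic count was 7 lower and 4 higher, with miR-29b-3p (0.81), miR-29c-3p (0.61) and miR-133a-3p (1.28) among the higher ones. More rows passed in that fit in both directions. Of all tested rows, 179 were lower and 152 higher, against 142 and 100 with all libraries.

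Markers of other cell types were read beside the members. Of 4 miRNAs of smooth muscle and pericytes, 1 was lower, 0 higher and 3 did not pass, and none of them was at 0 in all libraries. The lower one, miR-143-5p (log2 -0.90), lost its call without control-labelled library 1 or SCI-labelled library 2 or 3 (edgeR adjusted p up to 0.0859). The main one, miR-143-3p, had a log2 change of 0.05. Their summed level was 10199.9 to 16586 CPM (control label) against 12885 to 14069.7 (SCI label). Neither endothelial miRNA, the miR-126a arms, passed the test with all libraries. Without control-labelled library 3, miR-126a-3p was lower (log2 -0.49, edgeR adjusted p = 0.0332). Without that library miR-145a-5p, of the smooth muscle and pericyte list, was higher (log2 0.59, edgeR adjusted p = 0.0375). Leukocyte miRNAs moved with the members: 6 of 6 were lower, and 4 to 6 when any 1 library was left out, the calls lost being those of miR-150-5p and miR-146a-5p. The neutrophil miRNA miR-223-3p had a log2 change of -3.75. The summed level of the leukocyte miRNAs was 3373 to 4767 CPM (control label) against 1030.3 to 1217 (SCI label). Most of the sum under the SCI label was miR-146a-5p, at 814 ± 156 CPM (TMM-scaled; SD, n = 3). Its log2 change was -0.86, against -3.88 for miR-142a-5p and -2.83 for miR-142a-3p. Erythroid miRNAs also moved with the members, 4 of 4 being lower, also when any 1 library was left out, with summed levels of 10876 to 30981 against 2254 to 5194. The part of leukocytes and blood in the result for miR-199 and miR-214 was not tested.

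Neuron miRNAs moved the other way. Of 4, miR-128-3p, miR-129-5p and miR-218-5p were higher under the SCI label and miR-124-3p (log2 -0.52) did not pass, with a median log2 change of 1.34, and 3 were higher when any 1 library was left out. Their summed level was 12399 to 16435 CPM (control label) against 28916 to 38042 (SCI label). Of 3 oligodendrocyte miRNAs none passed the edgeR test with all libraries, and without control-labelled library 3 miR-219a-5p was higher (log2 0.61, adjusted p = 0.0405). The part of neuronal RNA in the result for miR-199 and miR-214 was not tested.

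Skeletal muscle miRNAs gave no settled direction. None of 4 passed the edgeR test, and their summed level was 7844 to 43584 CPM (control label) against 10029.5 to 18555 (SCI label). With all libraries their median log2 change was -0.71, in the direction of the members. It was 0.95 without control-labelled library 3, and -1.16 to -0.61 without any other single library. Without control-labelled library 3, which held the most, 2 of the 4 were higher in the SCI-labelled libraries, while all 5 members stayed lower and past the test. These 2 were miR-133a-3p, also on the antifibrotic list, and miR-133b-3p. Of all tested rows, 152 were higher in that fit, against 100 with all libraries. Without that library miR-199a-3p had a log2 change of -1.39 and miR-214-3p of -3.40.

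The miRNAs whose levels followed the members most closely came from several loci. Over the 6 libraries, Pearson's r with the mean log2 level of the 5 members was 0.990 for miR-203-3p, a miRNA of skin epithelium. It was 0.978 for miR-652-3p, 0.978 for miR-542-3p of an X-linked cluster, 0.977 for miR-378a-3p of the Ppargc1b gene and 0.950 for miR-27b-3p. These 5 were the highest of 265 miRNAs with a mean of at least 50 CPM. The r values are descriptive, since the libraries fall into 2 groups and any miRNA that differs between them scores high. miR-203-3p stood at 390.5 ± 67.5 CPM (control label) against 122 ± 23.7 CPM (SCI label; SD, n = 3 each), and miR-378a-3p at 2025 ± 478 and 647 ± 153 CPM. Both were lower by folds close to those of the miR-199 rows, 3.21 and 3.13.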

How the data were processed

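Small RNA libraries of 3 control-labelled and 3 SCI-labelled mouse spinal cords were analysed, each from 3 µg of total RNA with the NEBNext small RNA kit, per the labels' protocols. The authors deposited 1 table with whole-number read counts and TPM values per library. Bowtie and mm10 are named in the submitters' processing notes, and the miRBase release and the treatment of multiply matching reads were not stated in those notes. The deposited TPM values equal counts scaled to a sum of 1000000 per column, to within 2.74e-05. Each of the 12 value columns was assigned to its sample by the column name that the sample description gives. Total counts were 5568491 to 8889977 per library. The 6 libraries are taken to come from the 6 mice the design text describes, and p-values measure the spread between these libraries.

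Counts were tested in R 4.3.3 with edgeR 4.0.16 (filterByExpr with a minimum count of 10, TMM, robust quasi-likelihood F test, group only, Benjamini-Hochberg over 614 rows, threshold 0.05). Intervals at 95% used standard errors derived from the F statistic. Arms were compared with diffSpliceDGE over 179 hairpin names. Ratios were tested by exact two-sided permutation with 0.5 added to counts. Alternatives used DESeq2 1.42.0, limma 3.58.1, other scalings and filters, the replicate number as a block and leaving out each library. The steps were tested on simulated data. The members and lists were chosen with earlier results of these data known. The naming rule took all rows of miR-199 and miR-214, members of the lists, and the 5 rows of at least 50 CPM most correlated with the mean of the members. Sequences came from RefSeq (GRCm38.p6) and positions from GENCODE M21.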

Additional observations from a re-analysis of the deposited data

How the results depend on the processing

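Over 16 alternatives (3 other scalings, no filter, DESeq2, limma voom, limma on log2(TPM + 1) and log2(TPM + 0.1), the replicate block, each library left out, and, chosen after seeing the data, the 10 most abundant rows left out), miR-199a-3p, miR-199a-5p, miR-199b-5p and miR-214-3p kept their direction and their call. Their log2 changes ran from -1.82 to -1.36, -2.03 to -1.50, -1.91 to -1.28 and -3.64 to -3.15. miR-214-5p kept its direction (-1.61 to -0.75) and lost its call without 4 single libraries and with the 10 most abundant rows left out (edgeR adjusted p = 0.0516), so 4 or 5 members passed. The cause was not tested. Without single libraries, 87 to 179 rows were lower and 54 to 152 higher, against 142 and 100. The log2 arm difference of miR-214 was -2.40 to -1.82 without single libraries, and that of miR-199a -0.00386 to 0.213. No ratio moved by more than the larger of its group SDs. Without single control-labelled libraries, 3 ratios moved by more than the smaller SD, that of the SCI label: miR-199a-3p per miR-199a-5p (log2 difference -0.04 to 0.21) and miR-214-5p per miR-199a-5p (0.01 to 0.63) or per miR-199a-3p (-0.09 to 0.67). With no filter, 38 hairpins passed the arm test against 54. Deviations from the group mean correlated at -0.26, 0.17 and -0.18 between same-numbered libraries, and at -0.22 to 0.33 between the others. With 3 libraries a group this cannot settle whether the numbers pair them. With the replicate block, 4 members were lower, 112 rows were lower and 78 higher, miR-214-5p had an adjusted p of 0.0870 and the arm difference of miR-214 was -2.12 (adjusted p = 0.0288, edgeR). No 2 member rows share a mature sequence in the table, so taking such rows as 1 was not run. With 61 to 142 reads of miR-214-5p and 82 to 112 of miR-214-3p per SCI-labelled library, small differences between these arms could not be seen.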
